A study of Rattus norvegicus with 8 samples.

Results

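The subject is the Hox cluster genes of the rat, read on 8 one-colour Agilent expression arrays. A gene was taken when the RefSeq symbol of its probe's accession was Hox, a cluster letter from a to d and a number, and when the probe stood in the deposited value table. Described here are 15 such genes out of the 12765 named genes of the table: 4 of the a cluster, 4 of b, 2 of c and 5 of d. Where a gene had several probes, the one with the highest average level across arrays stands for it. A further 4 Hox genes, Hoxb3, Hoxc12, Hoxb13 and Hoxd13, have array probes outside the table, and no spot of those probes was well above background on any array. For 19 other Hox genes of the RefSeq gene table no probe was matched.

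Total RNA came from sciatic nerve, spinal cord and cultured Schwann cells of Sprague-Dawley rats, with 1 array for each of 8 groups. The left sciatic nerve of adult females was cut at mid-thigh. Its proximal segment, its distal segment and the contralateral right nerve, whose label also names a PBS injection site, were taken at day 1, each as a pool of 3 animals. The 2 cord samples, each also a pool of 3 animals at day 5, are labelled dorsal hemisection and C-level control; their labels count days from an injection and the protocol from an injury. What was injected, and the cord level of the hemisection sample, are not given in the sources used here. Schwann cells, grown from sciatic nerves of postnatal day 1 to 3 rats, depleted of fibroblasts (purity over 99% by S100 staining, per the protocol) and used at passages 3 to 7, were left unstimulated for 24 h, or received 5 µg/ml of S100A8/A9, a calcium-binding protein complex of neutrophils, during 1 h or 24 h. The cultures were grown with serum and forskolin, and the labels do not say whether they came from 1 preparation.

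Hox genes encode homeodomain transcription factors and lie in 4 clusters. Within a cluster, the genes of low number are used toward the head and those of high number toward the tail and the ends of the limbs, so that the set of Hox genes active in a cell records its position along the body axis. Genes of the same number in different clusters form a paralog group. In the cord the code helps to set the identity of motor neurons at each level, and in the limb the genes of the 5′ ends of the a and d clusters pattern the segments from hip to foot. Hox proteins bind DNA together with homeodomain cofactors of the Pbx, Meis and Pknox families, and Polycomb and trithorax complexes hold clusters silent or active.

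Each level below is a deposited log2 value under the heading of its table column. A scanner file is recorded under each sample too, and for 7 of the 8 samples the column ranked as a scan recorded under another sample did (Spearman rho across probes at least 0.9998, against 0.802 to 0.900 for the scan recorded under the sample). Background flags and spot errors were taken from the scan that matches the column. A probe counted as well above background, or detected, where at least 50% of its spots were flagged so. The tissue markers fit the headings: the neuronal Snap25 stood at 12.45 and 14.80 in the 2 cord columns and at no more than 5.12 elsewhere, and the leukocyte gene Ptprc at 9.07 to 12.61 in nerve and cord and at 1.85 to 1.98, not well above background, in Schwann cells. Markers do not test the labels within 1 tissue. With the scans as recorded, no Hox gene passed the test between tissues and many differences turned, as given in the closing section.

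Between tissues the test was limma on all 12765 genes, with 3 nerve, 2 cord and 3 Schwann cell arrays and Benjamini-Hochberg adjustment. A gene passed at an adjusted p under 0.05 if it was also well above background on at least 1 array of the 2 tissues. No probe of the value table was at background on all arrays. A gene detected in 1 tissue alone may thus owe its place to that tissue, and its test against another tissue gives no support. The arrays of a tissue had different treatments, so these p-values measure only the spread between these arrays, which may share animals or cultures. Where a gene was not well above background on any array of 1 tissue, the difference is also given as a bound, taken against the lowest level well above background on those arrays. A probe binds with its own strength, so levels are compared for 1 gene across samples and not between genes. In these bulk samples fewer cells of a type and less RNA per cell cannot be told apart.

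The promoters of 4 members are shown because the results turn on these genes: Hoxa2 and Hoxa11 had opposite patterns over cord and Schwann cells, Hoxa7 was highest in cord, and Hoxd9 was over 2-fold apart between the 2 cord samples. Each runs 5′ to 3′ in the direction of its gene, from 250 bases before to 50 bases after the RefSeq start in build GRCr8, all 3 of the a cluster on the minus strand of chromosome 4 (chr4:82595643-82595942, chr4:82648192-82648491 and chr4:82676752-82677051 for Hoxa2, Hoxa7 and Hoxa11) and Hoxd9 on the plus strand of chromosome 3 (chr3:80007756-80008055). Capitals mark matches, on either strand, to the Meis motif TGACAG and the Pbx-Hox motif TGATNNAT.
Hoxa2: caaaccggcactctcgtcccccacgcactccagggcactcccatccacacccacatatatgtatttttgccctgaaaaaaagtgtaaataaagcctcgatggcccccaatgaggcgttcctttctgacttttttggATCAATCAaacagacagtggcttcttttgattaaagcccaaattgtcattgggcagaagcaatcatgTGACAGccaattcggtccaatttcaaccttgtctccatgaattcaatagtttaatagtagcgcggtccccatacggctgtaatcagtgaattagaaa
Hoxa7: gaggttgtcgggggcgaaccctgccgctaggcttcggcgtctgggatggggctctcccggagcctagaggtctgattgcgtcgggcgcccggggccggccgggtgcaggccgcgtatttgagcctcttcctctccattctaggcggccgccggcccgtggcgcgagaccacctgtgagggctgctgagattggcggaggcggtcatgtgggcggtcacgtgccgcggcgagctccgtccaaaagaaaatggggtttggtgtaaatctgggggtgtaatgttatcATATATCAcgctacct
Hoxa11: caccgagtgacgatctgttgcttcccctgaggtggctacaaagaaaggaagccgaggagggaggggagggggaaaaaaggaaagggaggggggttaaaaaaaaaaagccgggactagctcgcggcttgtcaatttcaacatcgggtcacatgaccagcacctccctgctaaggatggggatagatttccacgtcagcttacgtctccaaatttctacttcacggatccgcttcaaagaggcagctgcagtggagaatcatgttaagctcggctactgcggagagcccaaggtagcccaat
Hoxd9: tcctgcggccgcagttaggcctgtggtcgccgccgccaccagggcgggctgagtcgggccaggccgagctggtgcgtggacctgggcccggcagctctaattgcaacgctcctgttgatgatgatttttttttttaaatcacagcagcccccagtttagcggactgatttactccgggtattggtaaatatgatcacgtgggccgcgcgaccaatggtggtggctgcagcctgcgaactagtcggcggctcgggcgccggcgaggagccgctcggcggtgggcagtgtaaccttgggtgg
Hoxa2 holds TGACAG at position -47 from the start and TGATNNAT at -114 on the other strand. Hoxa7 holds TGATNNAT at 35, also on the other strand. RefSeq's table held a promoter for 10 of the 15 members. Among these TGACAG was found in 1 and TGATNNAT in 2, against 18.97% and 9.10% of all 33469 promoters of 300 bases. Another motif, TTTATNG, of the type bound by Cdx and posterior Hox proteins, was in 0 of the 10 and in 11.26% of all; a missing match says only that these letters are not in this window. The members' promoters had a median GC content of 60.83% and a median observed over expected CpG ratio of 0.746, against 51.67% and 0.392 over all promoters. Of the 4 shown, Hoxa2 had the lowest values (44.67% and 0.625) and Hoxa7 the highest (64.33% and 0.959).

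Hox genes of many paralog groups were detected in every tissue. Of the 15 members, 8 were well above background on all 8 arrays: Hoxb4, Hoxc4, Hoxd4, Hoxc5, Hoxa7, Hoxb7, Hoxb8 and Hoxd9. Hoxd10 was above it on 7 arrays, the C-level cord being the exception. The others differed in detection between tissues. Hoxa2, Hoxa6 and Hoxd12 were detected in nerve and cord and on no Schwann cell array. Hoxa11 was detected in nerve and Schwann cells and on no cord array, Hoxb9 only in Schwann cells, and Hoxd1 only in cord. The lowest level well above background was higher on Schwann cell arrays (4.28 to 4.67) than on the others (3.02 to 3.88). Thus Hoxa6 at 4.29 was detected in C-level cord but not in unstimulated Schwann cells at the same level. Hoxd1 at 3.92 was detected in hemisection cord, but not at 3.91 to 3.99 in Schwann cells. The number detected was 13, 11 and 11 in proximal, distal and contralateral nerve, 13 and 12 in the hemisection and C-level cord, and 11 in each Schwann cell culture. Of all 30367 array probes, also those outside the value table, 77.6%, 75.7% and 72.0% were detected in nerve. The shares were 76.0% and 73.6% in cord and 66.7% to 69.25% in Schwann cells. Only 50% of spots were above background for Hoxb8 and Hoxd10 in contralateral nerve and Hoxd12 in proximal nerve. A member at background may still be expressed below what the array can measure.

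**Figure D1:**
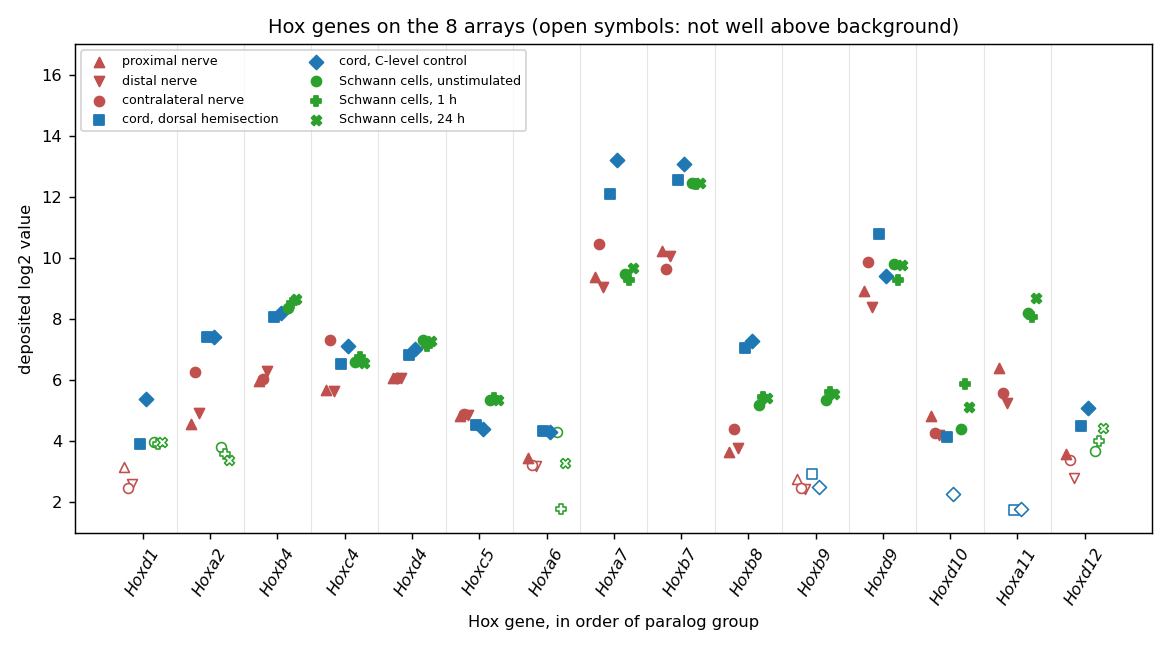
Deposited log2 value (vertical axis) of each of the 15 Hox genes (horizontal axis, by paralog group) on the 8 arrays; colour gives the tissue, the symbol the sample, and open symbols mark probes not well above background. Hoxa11 stands at 8.06 to 8.68 in Schwann cells, 5.24 to 6.40 in nerve and at background in cord, while Hoxa2 is highest in cord and at background in Schwann cells.

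Hoxd1 and Hoxa2, of the paralog groups 1 and 2 at the head end of the clusters, were not well above background in any Schwann cell culture. Hoxa2, which patterns the second branchial arch and the hindbrain, stood at 7.42 and 7.40 in hemisection and C-level cord. In proximal, distal and contralateral nerve it stood at 4.58, 4.92 and 6.26, and in unstimulated, 1 h and 24 h Schwann cells at 3.80, 3.59 and 3.40, not well above background. Both cord arrays lay above all nerve arrays. Hoxd1, known from the patterning of pain-sensing neurons, stood at 3.92 and 5.39 in the 2 cord samples and was not well above background in nerve (2.46 to 3.15) or Schwann cells (3.91 to 3.99).

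The 3 members of paralog group 4, a group that helps to set the pattern of the neck vertebrae, were detected everywhere, and 2 of them were lowest in nerve. Hoxb4, also known for its action in blood stem cells, stood at 5.97, 6.31 and 6.05 in proximal, distal and contralateral nerve, 8.05 and 8.21 in hemisection and C-level cord, and 8.35, 8.53 and 8.67 in unstimulated, 1 h and 24 h Schwann cells. Hoxd4 followed the same order at 6.06, 6.06 and 6.08 in nerve, 6.82 and 7.00 in cord, and 7.30, 7.13 and 7.29 in Schwann cells. For both genes every nerve array lay below every other array. Hoxc4 had no such order: contralateral nerve was the highest array at 7.30, while proximal and distal nerve were the lowest at 5.68 and 5.64, with cord at 6.54 and 7.13 and Schwann cells at 6.55 to 6.75 between them.

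Paralog groups 5 to 8, used mainly at trunk levels, held the members with the largest excess in cord. Hoxa7 stood at 12.08 and 13.21 in hemisection and C-level cord, against 9.36, 9.06 and 10.47 in proximal, distal and contralateral nerve and 9.46, 9.28 and 9.66 in unstimulated, 1 h and 24 h Schwann cells. Nerve and Schwann cells overlapped, and both cord arrays lay above them. Its paralog Hoxb7 was at 12.54 and 13.06 in cord and 10.22, 10.07 and 9.63 in nerve, but at 12.44, 12.43 and 12.45 in Schwann cells, close below the lower cord array. Both genes of paralog group 7 were thus above nerve in cord, and in Schwann cells Hoxb7 was above nerve too while Hoxa7 overlapped it. Hoxb8, needed for normal grooming in mice and used in the dorsal horn, stood at 7.06 and 7.27 in cord, 3.64, 3.78 and 4.42 in nerve and 5.19, 5.44 and 5.42 in Schwann cells, with no overlap between tissues. Hoxc5 kept within a narrow range, 4.40 and 4.55 in cord, 4.83 to 4.89 in nerve and 5.34 to 5.42 in Schwann cells, and Hoxa6 was near the limit of detection, at 4.29 and 4.33 in cord, 3.19 to 3.45 in nerve and 1.78 to 4.29 in Schwann cells.

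Paralog groups 9 to 12 serve the lumbar cord and the limbs, and here Hoxa11 differed most between tissues of all members. Hoxa11, which shapes the middle segment of the limb, the forearm and lower leg, stood at 6.40, 5.24 and 5.58 in proximal, distal and contralateral nerve and at 8.20, 8.06 and 8.68 in unstimulated, 1 h and 24 h Schwann cells. In both cord samples it stood at 1.77 and 1.79, not well above background. Hoxb9 was at 5.34, 5.61 and 5.53 in the Schwann cell cultures and at 2.43 to 2.92, not well above background, on all nerve and cord arrays. Hoxd9 was well above background everywhere, at 8.40 to 9.88 in nerve, 9.39 and 10.79 in cord and 9.28 to 9.79 in Schwann cells, and its tissues overlapped. Hoxd10, which takes part in the identity of lumbar motor neurons, stood at 4.82, 4.20 and 4.27 in nerve, 4.13 and 2.27 in cord and 4.40, 5.88 and 5.10 in Schwann cells. Hoxd12, of the hand and foot, was at 4.50 and 5.10 in cord and 2.78 to 3.57 in nerve, of which only proximal nerve was well above background, and at 3.68 to 4.45 in Schwann cells.

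More Hox genes were higher in cord than in nerve than the reverse. Of 14 members measured (Hoxb9 was at background in both tissues), 8 were higher in cord (Hoxd1, Hoxa2, Hoxb4, Hoxd4, Hoxa7, Hoxb7, Hoxb8 and Hoxd12) and 1, Hoxa11, was lower. Hoxd1 was detected in cord alone, so its place among the 8 gives no support. Over all genes 36.9% passed in either direction, 17.6% higher and 19.2% lower in cord. The median difference was 1.29 over the members and -0.16 over all genes (log2). Hoxb8 was 9.31-fold higher in cord (log2 difference 3.22, SE 0.29, limma adjusted p = 0.000261), Hoxa7 8.08-fold (3.01, SE 0.47, adjusted p = 0.00292) and Hoxb7 7.09-fold (2.83, SE 0.23, adjusted p = 0.000164). The earlier groups followed with Hoxa2 at 2.15 (SE 0.47) and Hoxb4 at 2.02 (SE 0.20). Hoxa11 was at least 4.96-fold lower in cord (bound -2.31 on the log2 scale, limma adjusted p = 0.000296). By groups, 4 of 5 members measured in groups 1 to 4 and 3 of 5 in groups 5 to 8 were higher, and from group 9 on 1 of 4 was higher and 1 lower. Without the C-level array Hoxd1, Hoxa2 and Hoxd12 no longer passed (limma adjusted p = 0.0646, 0.0631 and 0.102), and without the distal nerve array Hoxd12 did not (0.0514); with normexp background correction Hoxd1 and Hoxd12 did not pass. Without the contralateral array Hoxc4 and Hoxd9 were also higher in cord, and without the hemisection array Hoxd10 was lower.

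**Figure D2:**
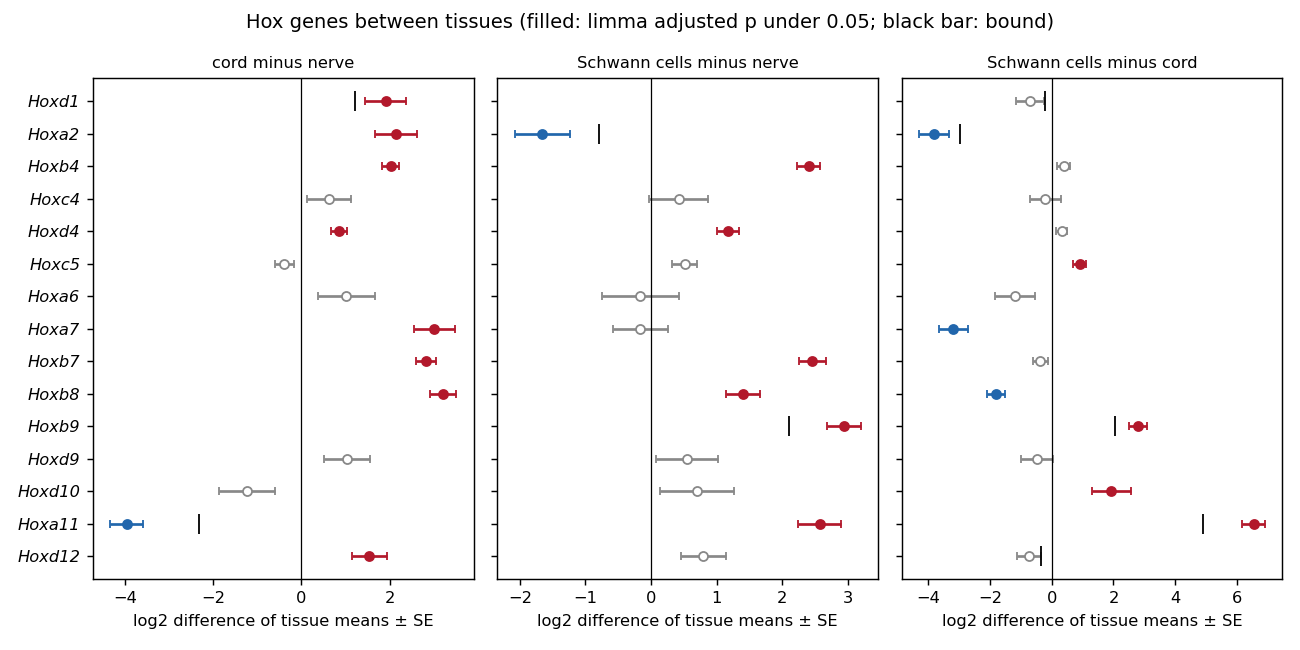
Difference of tissue means in log2 units (horizontal axis, bars give the standard error of the limma fit) for each measured Hox gene (vertical axis), in 3 panels: cord minus nerve, Schwann cells minus nerve, Schwann cells minus cord. Red and blue filled points passed the test as higher and lower and grey open points did not; a black bar is the bound. Hoxa11 is -3.96 in the first panel and 6.53 in the third, and 8 of 14 genes are red in the first.

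Cultured Schwann cells had more of Hoxb4, Hoxd4, Hoxb7, Hoxb8, Hoxb9 and Hoxa11 than nerve, and less of Hoxa2. Hoxd1 was at background in both tissues. These 7 of the 14 others compare with 45.9% of all genes that passed in either direction, 26.6% higher and 19.4% lower, so the share is near the background. The median difference was 0.75 over the members and 0.21 over all genes. Hoxb9 was at least 4.31-fold higher in Schwann cells (bound 2.11 on the log2 scale, limma adjusted p = 0.000125), and Hoxa11 5.95-fold higher (2.57, SE 0.33, adjusted p = 0.000715). Hoxb9 was detected in Schwann cells alone, so its test and its place in the count give no support. Hoxb7 (2.46, SE 0.20) and Hoxb4 (2.41, SE 0.18) were next, then Hoxb8 (1.40, SE 0.26) and Hoxd4 (1.17, SE 0.16). Hoxa2 was at least 1.74-fold lower (bound -0.80, limma adjusted p = 0.0161); without the 24 h culture its adjusted p was 0.0572. Hoxa7, at -0.16 (SE 0.42), did not pass, with a value of 0.26 without the contralateral array. Hoxb8 did not pass on the matched scans scaled to the 75th percentile (0.56, adjusted p = 0.178). Hoxc4 was also higher without the contralateral array, and Hoxc5 (0.51, limma adjusted p = 0.0607) passed as higher with normexp, without the variance trend, and without either cord array, which enter the estimate of spread.

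Against cord, Schwann cells had less of Hoxa2, Hoxa7 and Hoxb8, and more of Hoxc5, Hoxb9, Hoxd10 and Hoxa11. By groups, with 5 members measured in each, groups 1 to 4 had 0 higher and 1 lower and groups 5 to 8 had 1 higher and 2 lower. From group 9 on 3 were higher and 0 lower. Again 7 of 15 members passed, below the 56.9% of all genes (33.0% higher and 23.9% lower). The median was -0.36 over the members and 0.25 over all genes. Hoxa11 was at least 29.5-fold higher in Schwann cells (bound 4.88, limma adjusted p = 1.65e-05) and Hoxb9 at least 4.18-fold higher. Here too the test of Hoxb9, detected in Schwann cells alone, gives no support. Hoxa2 was at least 7.74-fold lower (bound -2.95, limma adjusted p = 0.000546), Hoxa7 9.04-fold lower (-3.18, SE 0.47) and Hoxb8 3.52-fold lower (-1.81, SE 0.29). Hoxd10 was at 1.93 (SE 0.63, limma adjusted p = 0.0324); it did not pass without the C-level array (1.00), the 1 h culture (1.55) or the 24 h culture (1.94), nor on the matched scans (0.88). Hoxc5 (0.90) turned to -0.33 on the matched scans. The lowest deposited value well above background was 4.28 to 4.67 on the Schwann cell arrays and 3.02 to 3.88 on the others. Hoxd1, Hoxa6 and Hoxd12, not called in the table, were lower in Schwann cells than in cord on the matched scans (-2.06, -2.28 and -2.05), and in the table Hoxd1 was lower without the hemisection array (-1.43) and Hoxa6 without the unstimulated culture (-1.76). Over all genes that scaling shifted the median difference by 0.13 for cord against nerve, -0.16 for Schwann cells against nerve and -0.34 for Schwann cells against cord, and moved the share of passing genes that were higher in Schwann cells from 58.0% to 47.24% against nerve and from 58.18% to 45.39% against cord.

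The order of the tissues was thus cord above Schwann cells above nerve for Hoxb8, Schwann cells above nerve above cord for Hoxa11, and cord above nerve above Schwann cells for Hoxa2, each step past the test with all arrays. As given above, each Hoxa2 step against nerve was lost without 1 array, and the step of Hoxb8 from nerve to Schwann cells on the matched scans. For Hoxb4, Hoxd4 and Hoxb7 nerve was the lowest tissue, and cord and Schwann cells did not differ past the test (limma adjusted p = 0.137, 0.159 and 0.211). With normexp Hoxb4 (0.39, limma adjusted p = 0.0430) and Hoxd4 (0.31, adjusted p = 0.0422) were higher in Schwann cells than in cord. For Hoxa7 cord was highest, and nerve and Schwann cells did not differ past the test. Across members, the rank correlation of paralog group with the difference was -0.19 for cord minus nerve and 0.44 for Schwann cells minus nerve, over 14 genes each, and 0.28 for Schwann cells minus cord, over 15; these comparisons share arrays, genes of a cluster are neighbours, and the values are descriptions.

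The samples also differed in their cell types. Over 12 fibroblast markers the mean log2 level was 12.76 to 13.94 in nerve, 10.25 to 11.85 in cord and 9.83 to 10.32 in Schwann cells. In Schwann cells 7 of the 12 were lower than in nerve, among them Dcn and Lum, not well above background there (1.77 to 2.94), and 1, Thy1, was higher (8.26 to 8.85 against 6.34 to 6.72). The collagen gene Col1a1 stood at 17.69 to 17.97 in Schwann cells and 15.24 to 16.94 in nerve, and Postn was at 3.43 for Schwann cells minus nerve, neither past the test (limma adjusted p = 0.138 and 0.0502). Against cord 4 of the 12 were higher in Schwann cells and 7 lower. Perineurial and endoneurial markers (7 genes) stood at 10.42 to 12.17, 8.67 to 9.28 and 7.45 to 7.70 in the same order, and endothelial and mural markers (10) at 9.82 to 10.57, 9.36 to 9.97 and 5.88 to 6.42. Of these 10, 8 were lower in Schwann cells than in nerve, among them Pecam1, not well above background there, and 1, Cdh5, was higher (8.55 to 8.93 against 7.89 to 8.45), with Acta2 at 11.64 to 11.96 against 10.74 to 11.08, not past the test. The 10 leukocyte markers stood at 8.79 to 11.62 in nerve, 8.52 to 10.33 in cord and 3.88 to 4.06 in Schwann cells. The mean levels of neuron (12), astrocyte (10) and oligodendrocyte (10) markers were highest in cord, at 9.45 to 10.73, 13.26 to 13.66 and 12.27 to 12.86, against at most 5.87, 8.79 and 7.40 elsewhere. In cord 9, 9 and 10 of them were higher than in nerve and 1, 0 and 0 lower. Gad2 and Olig2 were detected in cord alone and Isl1 in nerve alone, so their tests give these counts no support. Isl1 stood at 4.14 to 5.23 in nerve and was not well above background in cord. Of 11 neuron markers measured, 4 were higher in Schwann cells than in nerve and 5 lower. Nefm stood at 12.79 to 13.12 in Schwann cells, against 7.58 to 8.83 in nerve. The 12 Schwann cell markers stood at 10.15 to 10.83 in nerve, 9.83 to 10.42 in cord and 10.97 to 11.24 in the cultures. Skeletal muscle markers (10) stood at 7.26 to 11.66, 8.13 to 9.36 and 5.25 to 5.42, and adipocyte markers (7) at 10.57 to 11.53, 5.60 to 9.57 and 4.26 to 4.38. The part of any of these cell types in the Hox differences was not tested.

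Between the 2 cord samples a few Hox genes differed in each direction. With 1 array on each side there is no replicate check and no test; the error given is the technical error of replicate spots, and a gene is counted from a 2-fold difference on. Of 13 members measured, 4 reached it by the deposited values, against 19.7% of all genes (10.5% higher and 9.27% lower). Hoxd9 was 2.64-fold higher with hemisection (log2 ratio 1.40, spot error 0.068) while Hoxd10, not well above background in the C-level sample, was at least 1.38-fold higher (bound 0.47), which does not reach 2-fold; the 3 others were well above background in both samples. Hoxa7 was 2.19-fold lower (-1.13, spot error 0.055) and Hoxd1 2.77-fold lower (-1.47, spot error 0.34). Hoxb7 (-0.51, spot error 0.055), Hoxc4 (-0.59, spot error 0.16) and Hoxd12 (-0.60, spot error 0.30) were lower by less than 2-fold, and Hoxa2 (0.016), Hoxd4 (-0.18) and Hoxb8 (-0.21) lay close to 0. The median was -0.18 over the members and -0.046 over all genes. Over the 13 genes the rank correlation of paralog group with the ratio was 0.22, and over the 12 that were well above background in both samples it was 0.081, so the ratio did not follow the paralog order closely. With normexp Hoxd1 (-0.37) and Hoxd10 (0.34) fell short of 2-fold, and on the matched scans Hoxa7 was at -0.98.

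Other markers moved between the same 2 cord samples. All 7 adipocyte markers (median log2 ratio -3.75), 8 of 11 neuron markers (-1.33) and, of the muscle list, 7 of 10 (-1.40) were lower by 2-fold or more with hemisection, and all 9 leukocyte markers measured (1.70) and 6 of 12 fibroblast markers (1.04, with 1 lower) at least 2-fold higher. Of 12 Schwann cell markers 4 were at least 2-fold higher with hemisection and none lower (median 0.24). Levels of the cord, injury and cell make-up cannot be told apart for the Hox genes in this pair.

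**Figure D3:**
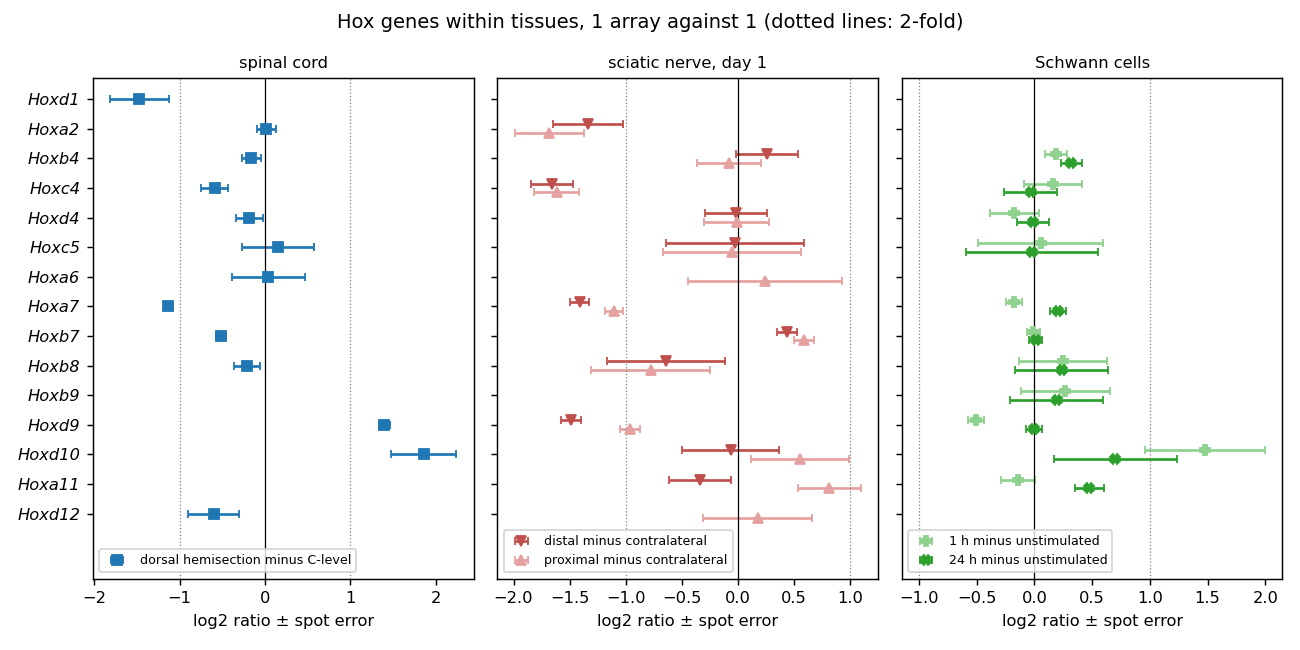
Log2 ratio of 1 array to 1 other (horizontal axis, bars give the technical error of replicate spots) for the Hox genes measured in each pair (vertical axis); panels show cord, nerve and Schwann cells, each with its own scale, and dotted lines mark 2-fold. In cord Hoxd9 lies right of 2-fold and Hoxd1 and Hoxa7 left of it, while the Hoxd10 point rests on a C-level value at background, with a bound of 0.47. The cut nerve has 4 genes left of 2-fold distally, and only Hoxd10 passes it in Schwann cells.

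In the cut nerve some Hox genes were at least 2-fold lower than in the contralateral nerve and none was 2-fold higher, with ratios on both sides of 0 among the rest. Distally 4 of 11 members measured were at least 2-fold lower, against 28.2% of all genes in either direction and 14.3% lower. Hoxc4 was 3.16-fold lower (log2 ratio -1.66, spot error 0.19), Hoxd9 2.80-fold (-1.49, spot error 0.088), Hoxa7 2.66-fold (-1.41, spot error 0.082) and Hoxa2 2.53-fold (-1.34, spot error 0.31). Proximally 3 of 13 were at least 2-fold lower, against 23.5% in either direction and 11.9% lower: Hoxa2 (-1.68), Hoxc4 (-1.61) and Hoxa7 (-1.11), with Hoxd9 just short at -0.96. Hoxb7 went the other way at 0.44 distally and 0.59 proximally (spot errors 0.085 and 0.087), and Hoxb4 (0.26 and -0.081) and Hoxd4 (-0.021 and -0.014) lay close to 0. Hoxa11 was at -0.34 distally and 0.81 proximally (spot error 0.28 each). The median was -0.34 distally and -0.055 proximally over the members, and 0.011 and -0.0095 over all genes. Both pairs share the contralateral array, so their likeness is no independent sign.

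With normexp Hoxa7 (-1.29) and Hoxd9 (-1.31) remained at least 2-fold lower distally and Hoxa7 (-1.01) proximally. In the same pairs fibroblast markers were lower (8 of 12 at least 2-fold distally, median -1.31; 7 of 12 proximally, -1.27), perineurial and endoneurial markers were lower (5 of 7 in each, -2.30 and -1.03), leukocyte markers were higher (9 of 10 and 8 of 10, 2.28 and 1.78), and skeletal muscle markers were higher (6 of 9 distally, 1.25; 10 of 10 proximally, 4.33). Schwann cell markers had 6 and 4 of 12 at least 2-fold lower and 2 higher in each. Their part in the Hox ratios was not tested.

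With S100A8/A9 the detected Hox genes of Schwann cells stayed within 2-fold of the unstimulated culture, with Hoxd10 at 1 h as the exception. At 1 h 1 of 11 members measured was 2-fold apart, Hoxd10 at 1.48 (spot error 0.52, so the 2-fold mark lies within its error), against 3.42% of all genes (1.76% higher and 1.66% lower). At 24 h 0 of 11 were, against 1.46% of all genes (0.717% higher and 0.744% lower), with Hoxd10 at 0.70 (spot error 0.53). Hoxd9 was at -0.51 at 1 h (spot error 0.070) and -0.0069 at 24 h, and Hoxa11 at -0.14 and 0.48 (spot errors 0.15 and 0.12). Hoxb7 varied least, with ratios of -0.012 and 0.0089 (spot error 0.055 each), and Hoxb4 was at 0.19 and 0.32. The same 11 members were well above background in all 3 cultures, though for Hoxd10 only 50% of its spots were so in the unstimulated and 1 h cultures. Both ratios share 1 unstimulated culture, taken at 24 h.

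Among the cofactors of Hox proteins, 6 of 8 listed genes were in the table, and all were well above background on all 8 arrays. Pbx3 had the largest differences: it stood at 9.69, 9.81 and 10.05 in proximal, distal and contralateral nerve, 12.13 and 13.19 in hemisection and C-level cord, and 11.67, 11.38 and 11.57 in unstimulated, 1 h and 24 h Schwann cells. In cord 2 of 6 were higher than in nerve and none lower: Pbx3 (2.81, SE 0.30, limma adjusted p = 0.000574) and Meis1 (1.06, SE 0.34, adjusted p = 0.0425). In Schwann cells 4 of 6 were higher than in nerve: Pbx3 (1.69), Meis1 (1.45), Meis3 (1.40) and Pbx2 (0.57). Against cord, Pbx2 and Meis3 were higher in Schwann cells (0.91 each) and Pbx3 lower (-1.12). The medians of the 3 comparisons were 0.18, 0.98 and 0.65, and those of all genes -0.16, 0.21 and 0.25. Of all genes 17.6%, 26.6% and 33.0% passed as higher and 19.2%, 19.4% and 23.9% as lower. Of genes that flank the clusters or act above them, 6 of 10 were in the table; Lnpk and Mtx2, beside the d cluster, were both higher in Schwann cells than in cord (1.07 and 1.18), and Evx1, beside the a cluster, passed in none of the 3 comparisons. The list had 0 higher and 2 lower of 6 in cord against nerve, 1 and 2 of 6 in Schwann cells against nerve, and 2 and 1 of 5 against cord. Skap1 was detected in nerve alone, so its tests give no support.

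**Figure D4:**
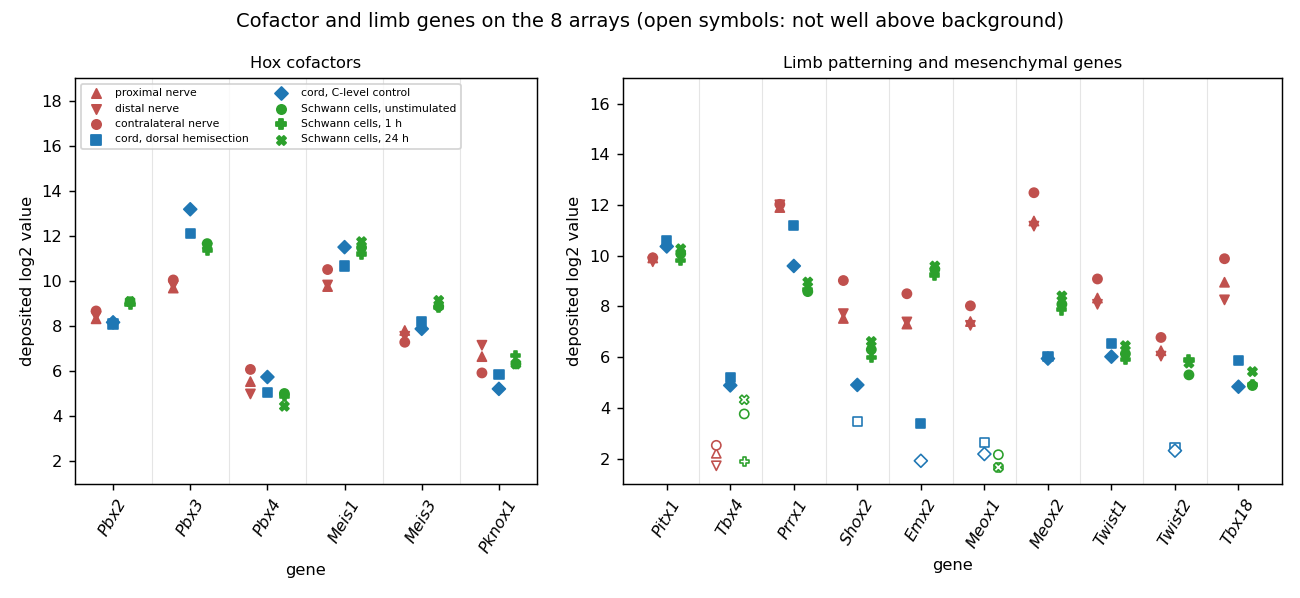
Deposited log2 value (vertical axis) on the 8 arrays of the 6 Hox cofactor genes (left) and 10 limb patterning and mesenchymal genes (right) in the value table; colour gives the tissue and the symbol the sample, and open symbols mark probes not well above background. Pbx3 and Meis1 are lowest in nerve, Meox2 is highest in nerve, and Emx2 is high in Schwann cells and nerve and low in cord.

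Genes of the limb and mesenchyme list were mostly highest in nerve. The mean level of the fibroblast markers was highest in nerve too. Whether the listed genes mark position or cell type was not tested. Of 15 listed, 10 were in the table. In cord 8 of 10 were lower than in nerve and 2, Tbx4 and Pitx1, higher, against 19.2% and 17.6% of all genes. Tbx4 was detected in cord alone and Meox1 in nerve alone, so their tests and their places in the counts give no support. Tbx4, known for the hindlimb bud, was at 4.89 and 5.21 in cord and not well above background in nerve. Pitx1, which specifies the hindlimb, was at 9.77 to 9.92 in nerve, 10.37 and 10.59 in cord and 9.82 to 10.28 in Schwann cells, a difference of 0.61 for cord against nerve. Meox2, a mesodermal homeobox gene, was at -5.70 (SE 0.39) for cord against nerve and -3.56 (SE 0.35) for Schwann cells against nerve, and Meox1, its paralog, was lower by at least 4.13 and 3.11 (bounds -4.13 and -3.11). In Schwann cells 6 of 9 were lower than in nerve and 1, Emx2, was higher (1.70, SE 0.45, limma adjusted p = 0.0186). Emx2, a homeobox gene of forebrain, urogenital system and limb girdle, stood at 9.47, 9.24 and 9.60 in Schwann cells, 7.31, 7.39 and 8.50 in nerve and 3.40 and, not well above background, 1.91 in cord. Prrx1 (-3.24) and Tbx18 (-3.96), of limb and mesenchymal cells, were among the lower genes in Schwann cells. Against cord, 4 of 9 were higher in Schwann cells and 1 lower, with counts of 3 and 4 on the matched scans. The medians were -3.79, -2.34 and -0.13, and those of all genes -0.16, 0.21 and 0.25. Of all genes 26.6% were higher and 19.4% lower in Schwann cells than in nerve, and 33.0% and 23.9% than in cord.

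Genes of the Polycomb and trithorax complexes were mostly higher in the cultured cells. Of 22 listed, 15 were in the table, and 10 were higher and 2 lower in Schwann cells than in nerve, as they were in number against cord. Of all genes 26.6% were higher and 19.4% lower against nerve, and 33.0% and 23.9% against cord. Cbx2, a Polycomb subunit, was at 11.61, 10.91 and 11.72 in unstimulated, 1 h and 24 h Schwann cells, 7.54, 7.53 and 8.11 in proximal, distal and contralateral nerve and 7.63 and 7.29 in hemisection and C-level cord. Ezh2, the H3K27 methyltransferase of dividing cells, was higher by 2.89 (SE 0.39) against nerve, while its paralog Ezh1 (-1.73, SE 0.34) and the Polycomb subunit Cbx7 (-1.97, SE 0.63) were lower. Cord against nerve had 1 higher, Men1, and 5 lower, among them Eed (-1.75) and the demethylase Kdm6b (-1.70). The medians were 0.76 for Schwann cells against nerve, 1.43 against cord and -0.27 for cord against nerve, and those of all genes 0.21, 0.25 and -0.16. No gene that passed in these 4 lists had the opposite sign on the matched scans or with normexp.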

How the data were processed

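The labels name 8 rat samples, each with 1 array, all on 1 slide. Per the file headers, Feature Extraction 10.7.3.1 wrote the linear spot intensity of the deposited scans and subtracted background; the submitters' processing notes name Agilent Feature Extraction 10.5. For 24894 probes the authors deposited a table of log2 values; its columns share the median 8.03, so it was normalized between arrays, by a method not given in the sources used here. Columns were taken by their headings, and flags and spot errors from the scan each column ranked with. Accessions of 15213 table probes matched RefSeq symbols of GRCr8 and 9681 did not; the headers name build rn4, so only promoters carry coordinates. No probe sequence was used, so cross-binding between paralogs was not examined. Differences were fitted with limma 3.58.1 (R 4.3.3, eBayes with trend), and checked on simulated data: of genes shifted by 3 on the log2 scale 95% and 96% were recovered in cord and Schwann cells against nerve, of those shifted by 1 16% and 25%. Genes outside the clusters were named only from 14 lists: those passing with the largest differences, up to 4 each, and tissue markers; Evx1, Tbx4 and Pitx1 were named after their values were seen. Another gene that met the rule for members, and 2 genes of the lists, are not reported here and enter no count of members or list genes. Members and lists were chosen with earlier results of these data known. Alternatives were the scans as recorded, the matched scans at the 75th percentile or with normexp (offset 50, on the median signal) and quantile normalization, all probes of a gene averaged, a filter on dim probes, all probes in the fit, no trend, and each array left out.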

Additional observations from a re-analysis of the deposited data

Results flagged for a closer look

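A second Hoxc5 probe, outside the value table, stood at -6.22 (log2 processed signal over the array's 75th percentile, matched scan) in Schwann cells after 24 h of S100A8/A9, where 1 of its 2 spots was well above background. It was at -7.71 in the unstimulated culture and at -8.23 at 1 h, with no spot well above background on any other array. The Hoxc5 probe of the value table differed by -0.021 between the same 24 h and unstimulated cultures. It was picked out as a signal in data that no comparison used.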

How the results depend on the processing

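The scans as recorded under the samples, on which tissue markers go against the labels, changed nearly every result. With them limma passed 0 Hox genes in each of the 3 tissue comparisons, as it passed 0 of 12765 genes in all (at an unadjusted p under 0.05, 511, 255 and 2745 genes and 0, 0 and 1 Hox genes for cord against nerve, Schwann cells against nerve and Schwann cells against cord). With the same scans 0 members were 2-fold apart between the cord samples, 12 in distal and 9 in proximal against contralateral nerve, and 3 at 1 h and 12 at 24 h in Schwann cells. Over all genes 111 were at least 2-fold higher and 94 lower of 11025 in cord. Distally 1728 and 2486 of 12502 were, and proximally 2099 and 3534 of 12206. In Schwann cells 1369 and 1398 of 12242 were at 1 h, and 2605 and 2699 of 12584 at 24 h. Differences that then turned were, for cord against nerve, Hoxd1 (-0.17), Hoxa2 (-2.25), Hoxc4 (-0.15), Hoxa6 (-0.25), Hoxa7 (-0.56), Hoxb8 (-0.59), Hoxa11 (3.24) and Hoxd12 (-0.32). For Schwann cells against nerve they were Hoxa2 (1.11), Hoxb4 (-0.74), Hoxd4 (-0.10), Hoxa6 (0.67), Hoxa7 (0.85), Hoxb7 (-0.79), Hoxb9 (-0.78), Hoxd9 (-0.025), Hoxd10 (-0.87) and Hoxa11 (-0.17). For Schwann cells against cord they were Hoxd1 (0.72), Hoxa2 (3.36), Hoxb4 (-1.42), Hoxc4 (0.74), Hoxd4 (-0.41), Hoxa6 (0.91), Hoxa7 (1.41), Hoxb8 (0.69), Hoxb9 (-2.002), Hoxd10 (-0.067), Hoxa11 (-3.41) and Hoxd12 (0.97). Between the cord samples Hoxd9 (-0.012) and Hoxd10 (-0.67) turned, and at 1 h Hoxd10 (-0.49).

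On the matched scans at the 75th percentile 9, 6 and 8 members passed for cord against nerve, Schwann cells against nerve and Schwann cells against cord. Of all 12765 genes 2386 passed as higher and 1950 as lower, then 2653 and 2963, then 3078 and 3703, in the same order. Hoxc5 turned in all 3 (0.12, -0.21 and -0.33), with Hoxc4 (-0.085) and Hoxd12 (-0.089) for Schwann cells against nerve and Hoxb4 (-0.023) and Hoxd4 (-0.38) against cord. With normexp 7, 8 and 9 passed and Hoxa6 turned (0.040) for Schwann cells against nerve. Of all genes 2171 then passed as higher and 2163 as lower, 3802 and 2134, and 4410 and 2612. Between the cord samples 2 members were then 2-fold apart, 2 distally, 1 proximally and 0 at 1 h. Over all genes 728 were at least 2-fold higher and 545 lower of 12196 in cord, and 1018 and 986 of 12131 distally. Proximally 827 and 785 of 12242 were, and at 1 h 44 and 52 of 10968. The cause of these changes was not tested.

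Leaving out each array in turn changed which members passed, as given above. For Schwann cells against nerve it turned Hoxa7 (range -0.45 to 0.26, positive without contralateral nerve) and Hoxa6 (-0.74 to 0.51, positive without the 1 h culture). Against cord it turned Hoxd9 (-1.18 to 0.22, positive without hemisection), Hoxd1 (-1.43 to 0.038) and Hoxc4 (-0.50 to 0.089), both positive without the C-level array. Without the C-level array 1431 genes passed as higher and 1258 as lower in cord than in nerve, against 2237 and 2443 with all arrays. Averaged probes, the filter on dim probes, all probes in the fit (an alternative chosen after seeing the data) and no trend gave 7 to 9 passing members and turned none. Over all genes, averaged probes, the filter and no trend passed 1970 to 2220 as higher and 2349 to 2531 as lower for cord against nerve. For Schwann cells they passed 3310 to 3444 and 2370 to 2431 against nerve, and 4066 to 4276 and 2720 to 2922 against cord. With all 24894 probes the counts were 3947 and 4838, 6491 and 3960, and 8607 and 5136. No paired analysis was possible because each group has 1 array. The number of arrays limits the precision.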
